A study of Mus musculus with 6 samples.

Results

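The H3K4me3 peaks of TNFα-treated and untreated mouse colonic organoids were compared. The 2 deposited H3K4me3 peak lists hold 22798 peaks on the 19 autosomes, 11233 in wt and 11565 in wt+TNFα, of 114580 peaks in the 4 lists of the series on all chromosomes. Members were chosen by mark and chromosome alone, and each peak was then placed in a class by its overlap with the other list. Colonic organoids of wild-type C57BL/6 mice, grown from crypts in Matrigel, received no TNFα (wt), or TNFα at 40 ng/ml over 3 weeks (wt+TNFα). Both conditions share an organoid medium that holds L-WRN conditioned medium, a p38 inhibitor (SB203580), A83-01 and a GSK3 inhibitor. There was 1 H3K4me3 library in each condition, called against the input of that condition, and the organoids of a library were pooled from several wells. The number of mice or cultures behind a library and their sex are not given in the sources used here, which hold the study's source data in part. With 1 library a side no replicate error exists, so all comparisons are descriptions of these 2 libraries and carry no test.

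H3K4me3 is trimethylation of a lysine of histone H3. It marks the first nucleosomes of active and poised promoters, it is strongest where the promoter is rich in CpG, and it spreads into the gene body as a broad domain at genes that define a cell type. H3K27me3, laid down by Polycomb proteins, marks silenced developmental and inducible genes, and promoters that carry both marks are called bivalent. TNFα is an inflammatory cytokine that activates the transcription factor NF-κB in intestinal epithelial cells.

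The libraries stand apart in 2 ways that touch every result. The peak lists hold no read counts. By the study's reporting summary the wt+TNFα H3K4me3 library and its input were sequenced more deeply than those of wt, and the width and number of called peaks can grow with depth. On the sex chromosomes, which were not used in the comparison, the wt list held promoter peaks at the Y-linked genes Kdm5d, Eif2s3y and Uty, of 1028, 662 and 824 bp, whereas the wt+TNFα list held 0 peaks on chromosome Y. The peak at Xist, the RNA that silences 1 X chromosome in female cells, spanned 810 bp in wt (fold enrichment 8.55) and 4105 bp in wt+TNFα (23.4). Depth, the origin of the cultures and TNFα cannot be told apart with these libraries.

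The tissue label was checked by promoter peaks. Each of 15 markers of colonic epithelium, among them Epcam, Cdh1, Vil1, Cdx2 and Lgals4, carried a peak in both lists, with summed widths of 64828 bp in wt and 71782 bp in wt+TNFα. Of the markers of other cell types, 0 of 12 for fibroblasts and muscle had a peak in either list. Of 15 immune cell markers, 1 had a peak in wt (Cd14, 1854 bp) and 2 in wt+TNFα (Cd14, 2902 bp, and Lcp1, 726 bp), whereas Ptprc, which encodes the common leukocyte antigen CD45, and Cd3e had none. Of 8 endothelial markers 1 had a peak in each list (Egfl7), as did 1 of 10 neuron and glia markers on the autosomes (Ret).

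Promoter sequences of 7 genes whose peak was called in one list only are shown first, since they show how different these promoters are in base composition. They are the 250 bases before the RefSeq transcript start (GRCm38.p6), written 5′ to 3′ on the strand of the gene. For 4 genes induced by NF-κB in many cell types, each with a promoter peak in wt+TNFα alone (Tnip1 beside another in both lists), capitals mark matches to the NF-κB consensus on either strand. Ccl20 encodes a chemokine for immature dendritic cells and Th17 cells (chr1:83116516-83116765, plus strand), Cxcl2 a neutrophil chemokine (chr5:90903649-90903898, plus strand), Tnip1 a partner of the NF-κB inhibitor A20 (chr11:54962941-54963190, minus strand), and Icam1 a leukocyte adhesion molecule (chr9:21015690-21015939, plus strand).
Ccl20: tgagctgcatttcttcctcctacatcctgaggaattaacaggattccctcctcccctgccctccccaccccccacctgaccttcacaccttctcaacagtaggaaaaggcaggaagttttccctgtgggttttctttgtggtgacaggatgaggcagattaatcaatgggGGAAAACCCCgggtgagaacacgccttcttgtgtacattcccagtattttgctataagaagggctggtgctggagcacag
Cxcl2: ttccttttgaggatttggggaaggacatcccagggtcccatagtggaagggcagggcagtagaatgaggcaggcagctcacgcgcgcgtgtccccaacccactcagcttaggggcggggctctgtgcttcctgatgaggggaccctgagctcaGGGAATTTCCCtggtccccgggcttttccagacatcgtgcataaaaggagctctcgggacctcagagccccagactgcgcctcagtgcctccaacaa
Tnip1: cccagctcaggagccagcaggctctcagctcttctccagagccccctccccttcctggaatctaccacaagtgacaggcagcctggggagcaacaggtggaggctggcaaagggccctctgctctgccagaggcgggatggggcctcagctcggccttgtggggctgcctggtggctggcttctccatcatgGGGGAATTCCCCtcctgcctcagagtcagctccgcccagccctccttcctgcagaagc
Icam1: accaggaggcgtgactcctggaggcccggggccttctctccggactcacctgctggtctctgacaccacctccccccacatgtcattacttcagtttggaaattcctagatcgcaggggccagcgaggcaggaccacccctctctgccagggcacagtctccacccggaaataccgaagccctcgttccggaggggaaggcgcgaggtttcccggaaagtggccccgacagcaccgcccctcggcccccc

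The promoters of Ccl20, Cxcl2 and Tnip1 held 1 run of matches each, which lay 80 to 71, 97 to 87 and 58 to 47 bases before the start. That of Icam1 held no exact match in this window. The wt+TNFα peak covered all 250 bases at Cxcl2, the 124 bases nearest to the start at Tnip1, 117 at Icam1 and 69 at Ccl20, so that the match at Ccl20 lay just outside the peak. Over the 31396 autosomal promoters of the RefSeq table, 7.34% held a match, against 9.54% of the 10823 promoters under a shared peak, 12.6% of 230 under a wt+TNFα-only peak and 8.99% of 89 under a wt-only peak. These 4 genes were chosen after their values were seen.

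In the other 3 sequences capitals mark every CpG. Isx encodes an intestinal homeodomain factor that controls vitamin A metabolism and had its peak in wt+TNFα alone (chr8:74872924-74873173, plus strand). Slc5a8 encodes a transporter of butyrate and other short-chain fatty acids (chr10:88885742-88885991, plus strand), and Cyp1a1 the cytochrome P450 enzyme induced through the aryl hydrocarbon receptor (chr9:57697363-57697612, plus strand). Both had their peak in wt alone.
Isx: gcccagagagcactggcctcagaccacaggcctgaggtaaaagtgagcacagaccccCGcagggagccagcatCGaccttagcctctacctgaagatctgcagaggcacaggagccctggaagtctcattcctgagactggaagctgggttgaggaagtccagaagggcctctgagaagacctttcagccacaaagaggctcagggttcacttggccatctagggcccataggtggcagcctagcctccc
Slc5a8: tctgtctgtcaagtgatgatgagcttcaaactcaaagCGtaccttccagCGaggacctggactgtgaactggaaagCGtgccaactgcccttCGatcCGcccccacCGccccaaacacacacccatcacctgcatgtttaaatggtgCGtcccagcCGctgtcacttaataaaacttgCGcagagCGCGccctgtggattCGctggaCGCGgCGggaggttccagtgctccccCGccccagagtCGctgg
Cyp1a1: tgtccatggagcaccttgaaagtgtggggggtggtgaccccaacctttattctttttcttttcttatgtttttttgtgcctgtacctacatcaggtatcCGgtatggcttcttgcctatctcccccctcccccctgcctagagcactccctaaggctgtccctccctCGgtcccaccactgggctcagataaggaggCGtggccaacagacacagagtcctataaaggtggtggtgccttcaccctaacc

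Isx held 2 CpG in these 250 bases and Cyp1a1 held 3, while Slc5a8 held 17. The Slc5a8 promoter, under a wt-only peak, also held a match to the NF-κB consensus, which is not capitalised, and the other two held none. The median was 6 CpG over all RefSeq promoters, 18 under a shared peak, 13 under a wt+TNFα-only peak and 14 under a wt-only peak. Promoters with 5 or fewer CpG made up 6.41% of those under a shared peak, 16.5% of those under a wt+TNFα-only peak and 21.3% of those under a wt-only peak.

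Peaks of wt+TNFα were slightly more numerous and wider. The median width was 1415 bp for wt (quartiles 1009 and 1968 bp) and 1519 bp for wt+TNFα (1065 and 2098 bp). The lists covered 17.8 and 19.5 Mb. Peaks of at least 3000 bp made up 6.27% of the wt list (704) and 7.79% of the wt+TNFα list (901). Fold enrichment over background at the summit, as the authors' peak caller gave it, had a median of 25.1 in wt and 27.5 in wt+TNFα. At least 1 protein-coding promoter, defined as 1000 bp on each side of a transcript start, was touched by 89.3% and 88.3% of the peaks.

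**Figure D1:**
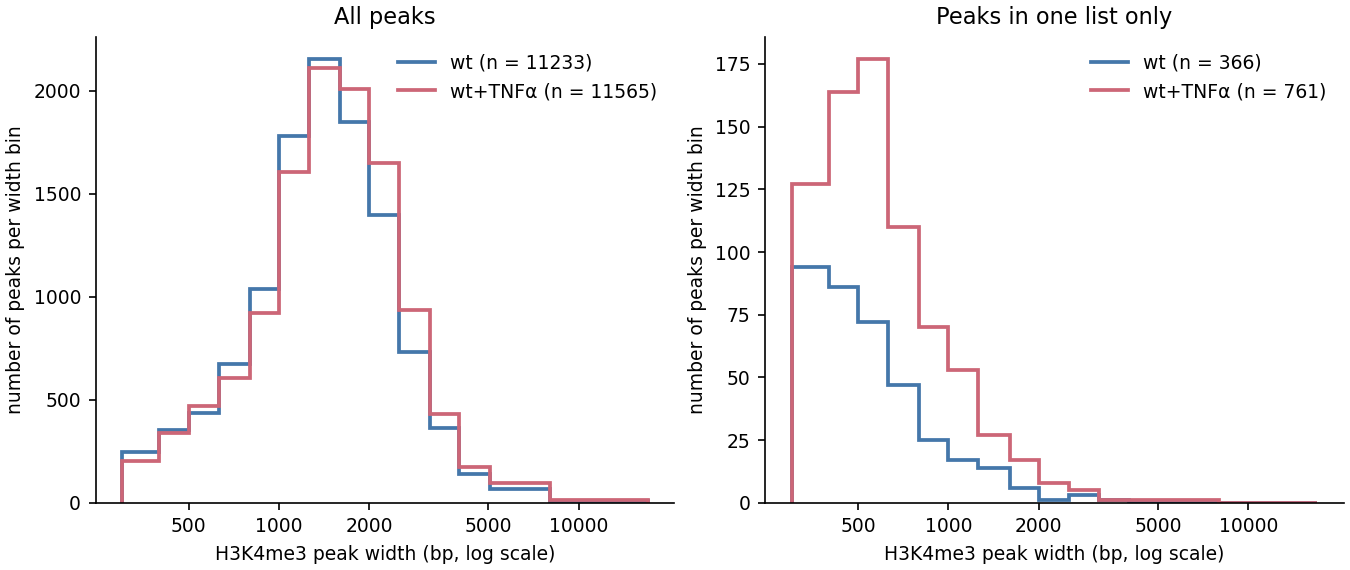
Number of H3K4me3 peaks per width bin (x axis in bp on a log scale, bins broader at larger widths) for all autosomal peaks (left) and for peaks with no base in the other list (right), wt in blue and wt+TNFα in red. The distribution of all peaks is shifted to the right in wt+TNFα (median 1519 against 1415 bp), and peaks in one list only are narrow in both, with medians of 556 and 504 bp.

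Most peaks were in both lists. A total of 10653 peaks paired one to one, 94.8% of the wt list and 92.1% of the wt+TNFα list. In 88 regions a wt+TNFα peak joined several wt peaks (179 in all), in 27 regions a wt peak was split in wt+TNFα (into 55), and 4 regions held several peaks of each. Peaks with no base in the other list numbered 761 in wt+TNFα (6.58% of 11565) and 366 in wt (3.26% of 11233). When the wt+TNFα list was cut to its 11233 peaks of highest −log10 q, the length of the wt list, 541 wt+TNFα peaks and 473 wt peaks were in one list only. The ratio of wt+TNFα-only to wt-only peaks was thus 2.08 for the full lists and 1.14 at equal list length. At equal length the counts can differ only through joined and split regions, so 1.14 is no measure of an excess.

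The peaks in one list only were narrow and weak. Their median fold enrichment was 6.34 (wt) and 6.74 (wt+TNFα), and 359 of the 366 and 738 of the 761 were in the lowest quartile of their list by fold enrichment. Only 42 wt peaks and 113 wt+TNFα peaks among them reached 1000 bp. Only 1 of the wt-only peaks and 2 of the wt+TNFα-only peaks had a −log10 q above the median of their list. The wt peak was 433 bp wide, had the highest fold enrichment of either list (158), and lay between genes, 367985 bp from the nearest protein-coding start (chr17:4626166-4626598). The wt+TNFα peaks lay at Hoxb6, which encodes a homeodomain factor of body axis patterning, and at Ism1, which encodes a secreted angiogenesis inhibitor (1751 bp, fold enrichment 25.8, chr2:139677159-139678909). The intergenic peak and Ism1 were named after their values were seen.

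The overlap rule divided the peaks sharply. Overlapping pairs shared at least 112 bp. Of the peaks in one list only, 32 in wt and 50 in wt+TNFα had a peak of the other list within 1000 bp, the nearest at 48 and 4 bp, and the median distance was 28566 and 27502 bp. A peak of the other list was more than 100000 bp away for 66 and 160 of them. No list of the series holds a peak on chromosome 1 before position 9237056. The 15 protein-coding genes that end before it were counted as genes without a peak, and their marks are not known here.

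Protein-coding genes with a wt+TNFα-only peak at the promoter numbered 391, 3.53% of the 11071 genes with a promoter peak in either list, and 303 of them had no promoter peak in wt. Nos2, inducible nitric oxide synthase, held the widest, 5352 bp (fold enrichment 21.4, chr11:78920146-78925497). This placed it 96th by width in the whole wt+TNFα list, and the nearest wt peak was 92898 bp away. The next was at Isx, 5035 bp (fold enrichment 19.8, chr8:74872350-74877384). Hoxb6 followed with 3729 bp, the highest fold enrichment of the wt+TNFα-only peaks, 35.0 (chr11:96292057-96295785), and its neighbour Hoxb7 with 3038 bp (8.12, chr11:96284217-96287254).

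Among the others of the 12 widest, Slc10a2, the ileal bile acid transporter, had 2800 bp (chr8:5102475-5105274), and Fgf15, the ileal hormone that represses bile acid synthesis in the liver, 2578 bp (chr7:144894524-144897101). Gcnt2, a glycosyltransferase that branches I antigen chains, held 2 of the 12, at different transcript starts, of 2505 and 2413 bp (chr13:40859833-40862337 and chr13:40916875-40919287). The remaining ones were at Fam20c, a kinase of secreted proteins (2793 bp, chr5:138754204-138756996), Gabrp, a GABA receptor subunit (2480 bp, chr11:33576574-33579053), Baiap2l2, a membrane-bending protein of microvilli (2399 bp, chr15:79283314-79285712), and the shared promoter region of Abi3 and Gngt2 (2384 bp, chr11:95834865-95837248). The narrowest of them had a width rank above 83.0% of the wt+TNFα list, and their fold enrichments were lower in rank, with only that of Hoxb6 above the median of the list.

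The 4 widest wt+TNFα-only peaks at no promoter lay in an intron of Celsr1, a planar polarity cadherin (2668 bp, chr15:86027679-86030346), near Krt19 (2176 bp, chr11:100155766-100157941), in an intron of Egln3, an oxygen-sensing prolyl hydroxylase (2131 bp, chr12:54188360-54190490), and within a predicted gene near Ifne, which encodes an epithelial interferon (1941 bp, chr4:88934279-88936219). A wt peak was 2491, 8679, 1359 and 1465 bp away from them.

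Protein-coding genes with a wt-only peak numbered 190, 1.72% of the 11071, and 153 of them had no promoter peak in wt+TNFα. Cyp1a1 held the widest, 2664 bp (fold enrichment 9.37, chr9:57697044-57699707). Neu3, a membrane sialidase, had 2628 bp (12.9, chr7:99825807-99828434) and Slc5a8 2206 bp with the highest fold enrichment of the 12 widest, 19.9 (chr10:88885643-88887848). Among the others were Aqp8, the water channel of surface colonocytes (1639 bp, chr7:123462383-123464021), Cyp2d26, a further cytochrome P450 enzyme (1590 bp, chr15:82792705-82794294), Tgm3, a transglutaminase (1524 bp, chr2:130012451-130013974), Zbtb16, a zinc finger repressor (1469 bp, chr9:48835137-48836605), and Ptpru, a receptor tyrosine phosphatase (1414 bp, chr4:131836977-131838390).

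At 4 of the 12 genes the promoters also held a peak that was in the wt+TNFα list, so that the gene as a whole was marked in both conditions. These were Ncoa4, a ferritin autophagy receptor (1891 bp, chr14:32165411-32167301), Sgk1, a kinase that raises epithelial sodium transport (1526 bp, chr10:21997080-21998605), Gpam (1519 bp, chr19:55125753-55127271) and Agpat1 (1466 bp, chr17:34608708-34610173). The last 2 encode enzymes of the first steps of glycerolipid synthesis. The 4 widest wt-only peaks at no promoter lay in introns of Atp8b5 (1997 bp, chr4:43338298-43340294) and Stambpl1 (1482 bp, chr19:34211211-34212692), near Hacd1 (1960 bp, chr2:14058161-14060120) and in an exon of Fads3 (1922 bp, chr19:10058509-10060430). The widest of all wt-only peaks, 3714 bp, touched only the promoters of the predicted genes Gm3054 and Gm40348 near Muc3 (chr5:137162628-137166341).

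**Figure D2:**
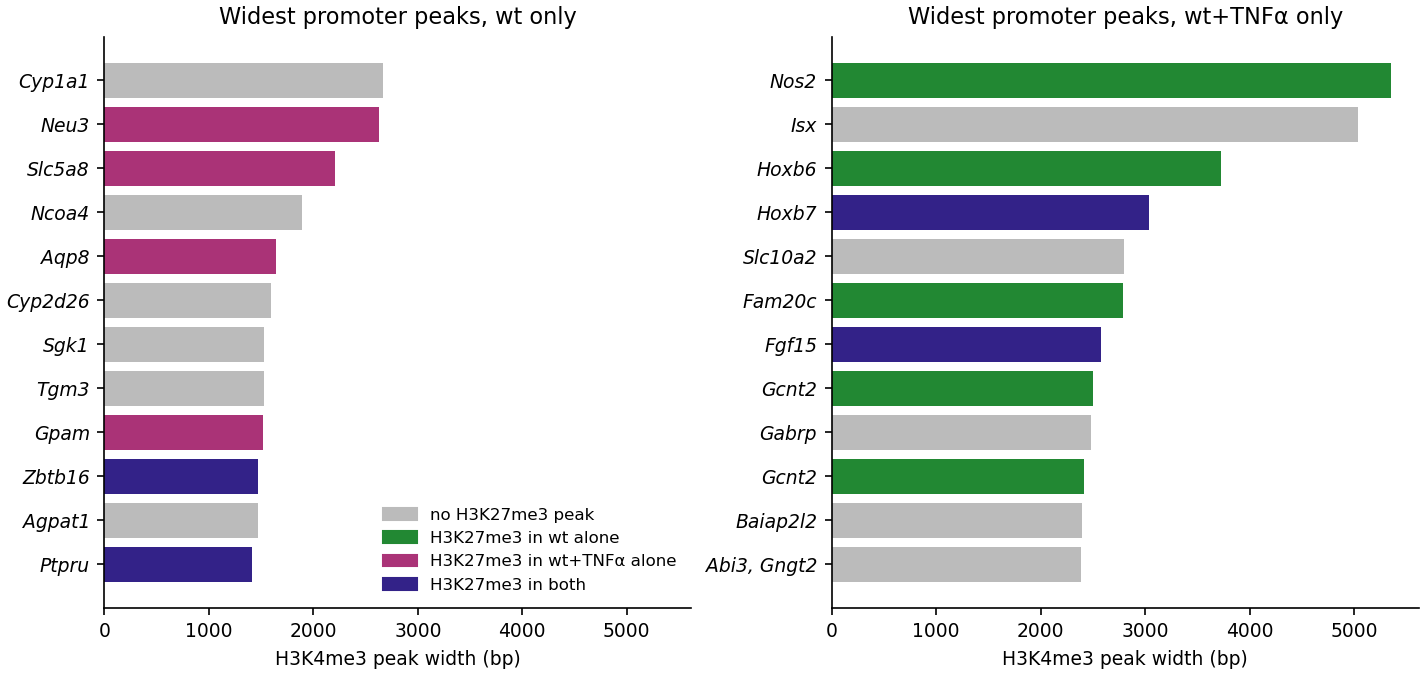
Width in bp of the 12 widest promoter peaks in the wt list only (left) and in the wt+TNFα list only (right), by protein-coding gene, with bars coloured by the H3K27me3 peaks over them. The 12 span 1414 to 2664 bp in wt and 2384 to 5352 bp in wt+TNFα, with H3K27me3 in wt alone over 5 of the wt+TNFα-only peaks and in wt+TNFα alone over 4 of the wt-only peaks.

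H3K27me3 was read over the same peaks, a mark that the classes did not use. Of the 366 wt-only peaks, 101 (27.6%) were under H3K27me3 in both conditions, 28 (7.65%) in wt+TNFα alone and 0 in wt alone. Of the 761 wt+TNFα-only peaks, 169 (22.2%) were under H3K27me3 in both, 41 (5.39%) in wt alone and 11 (1.45%) in wt+TNFα alone. Of the wt members of the one-to-one peaks, 5.33% were under H3K27me3 in both, 1.36% in wt alone and 1.52% in wt+TNFα alone. The shares differed with peak width. Among wt+TNFα peaks under 1000 bp, 26.2% of those in one list only and 21.1% of those that overlapped the other list were under H3K27me3 of wt, and 24.1% and 22.7% under H3K27me3 of wt+TNFα. Among wt peaks under 1000 bp the shares were 29.3% and 19.1% for H3K27me3 of wt, and 35.5% and 18.4% for that of wt+TNFα. Among wt+TNFα peaks of 1000 bp or more they were 35.4% in one list only and 3.75% overlapping for H3K27me3 of wt, and 21.2% and 3.50% for that of wt+TNFα. Among wt peaks of that width they were 14.3% and 3.16%, and 33.3% and 3.47%. The wt+TNFα H3K27me3 list covered 228 Mb of the autosomes against 101 Mb for wt, and the name of that list alone mentions no spike-in, so how far the lists are comparable is not known.

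Both marks differed at several of the named genes. Nos2, Hoxb6, Fam20c and both Gcnt2 starts were under H3K27me3 in wt alone and had an H3K4me3 peak in wt+TNFα alone. In all, 34 of the 386 wt+TNFα-only peaks at a protein-coding promoter were under H3K27me3 in wt alone, and 9 in wt+TNFα alone. Narrower examples of the 34 were at Parp8 (1980 bp), Msln (1854 bp), which encodes mesothelin, Icam1 (1553 bp), Psmb8 (862 bp), an immunoproteasome subunit, Plau (854 bp), urokinase, and Mapk12 (780 bp), the p38γ kinase. Parp8 was named after its values were seen. In the other direction, Neu3, Slc5a8, Aqp8 and Gpam were under H3K27me3 in wt+TNFα alone and had the H3K4me3 peak in wt alone. The peaks at Isx, Slc10a2, Gabrp, Cyp1a1, Cyp2d26 and Tgm3 were under no H3K27me3 peak of either condition, and those at Hoxb7, Fgf15, Zbtb16 and Ptpru were under one in both. Among the peaks of at least 1000 bp, 16 of 113 in wt+TNFα only were under H3K27me3 in wt alone and 0 in wt+TNFα alone, and 8 of 42 in wt only were under it in wt+TNFα alone and 0 in wt alone.

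The base composition around the summit divided the one-list-only peaks. In the 300 bases around the summit, the ratio of observed to expected CpG was under 0.6 for 22.5% of all wt peaks and 24.3% of all wt+TNFα peaks, but for 60.4% of the one-list-only peaks of each list (221 of 366 and 460 of 761). One-to-one peaks under 1000 bp, which are closer to them in width, had such windows in 33.6% of cases in wt and 33.9% in wt+TNFα. One-list-only peaks at a protein-coding promoter had them in 41.6% (wt) and 45.6% (wt+TNFα), and those at no promoter in 83.2% and 78.0%. Position was not matched in the comparison with one-to-one peaks. The CpG-poor peaks were seldom under H3K27me3, 9.95% of those in wt only and 5.00% of those in wt+TNFα only by the wt+TNFα list. Of the remaining one-list-only peaks, with a ratio of 0.6 or more, 73.8% and 52.2% were under it. Against the wt H3K27me3 list the shares were 2.71% and 9.13% for CpG-poor peaks and 65.5% and 55.8% for the others.

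Short motifs were counted in the same windows on both strands and set beside one-to-one peaks under 1000 bp of the same list. TGANTCA, the AP-1 site, was in 5.65% of the wt+TNFα-only and 5.19% of the wt-only peaks, against 3.91% and 3.49% of these narrow shared peaks and 2.98% and 3.03% of all peaks. The CDX letters TTTATNG, which share letters with the TATA box, were in 6.44% and 7.92%, against 4.07% and 4.17% of narrow shared peaks and 3.18% and 3.12% of all. The core of the interferon-stimulated response element (GAAA, any 2 bases, GAAA) was in 6.70% and 4.10%, against 4.82% and 4.43% of narrow shared peaks and 2.52% and 2.28% of all, so that its share in wt-only peaks was below that of narrow shared peaks. TGACGTCA, the CRE, was in 0.263% and 0.546%, against 0.696% and 0.894%, and 0.398% and 0.579% of all. The NF-κB consensus was in 10.8% and 13.4%, against 13.2% and 12.9%, and 14.8% and 15.1% of all. The one-list-only windows were poorer in GC, with a median of 56.3% in wt+TNFα and 55.5% in wt, against 63.7% of narrow shared peaks in each list. At a protein-coding promoter lay 50.7% of wt+TNFα-only and 50.5% of wt-only peaks, against 91.2% and 91.1% of one-to-one peaks. One-list-only peaks at such promoters held the AP-1 site in 4.40% and 4.32%, and the interferon element in 3.89% and 1.62%. Those at no promoter held them in 6.92% and 7.38%, and in 11.3% and 7.38%. TTTATNG was likewise more frequent at no promoter, the NF-κB consensus less. The parts of base composition and position in these shares were not tested.

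Of the 10653 one-to-one peaks, 7922 (74.4%) were wider in wt+TNFα and 2715 (25.5%) narrower. The median difference was 99 bp and the median ratio of widths (wt+TNFα over wt) 1.067, a log2 ratio of 0.093. The order of widths was close to the same, with a Spearman rank correlation of 0.936 across peaks, which are not independent replicates. At least 1.5-fold wider in wt+TNFα were 499 pairs (4.68%), and at least 1.5-fold narrower 128 (1.20%). At 2-fold the numbers were 160 and 38. In the quartile of pairs with the smallest mean width (2664 pairs), 278 were at least 1.5-fold wider and 78 narrower, against 62 and 15 in the quartile with the largest (2663 pairs).

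**Figure D3:**
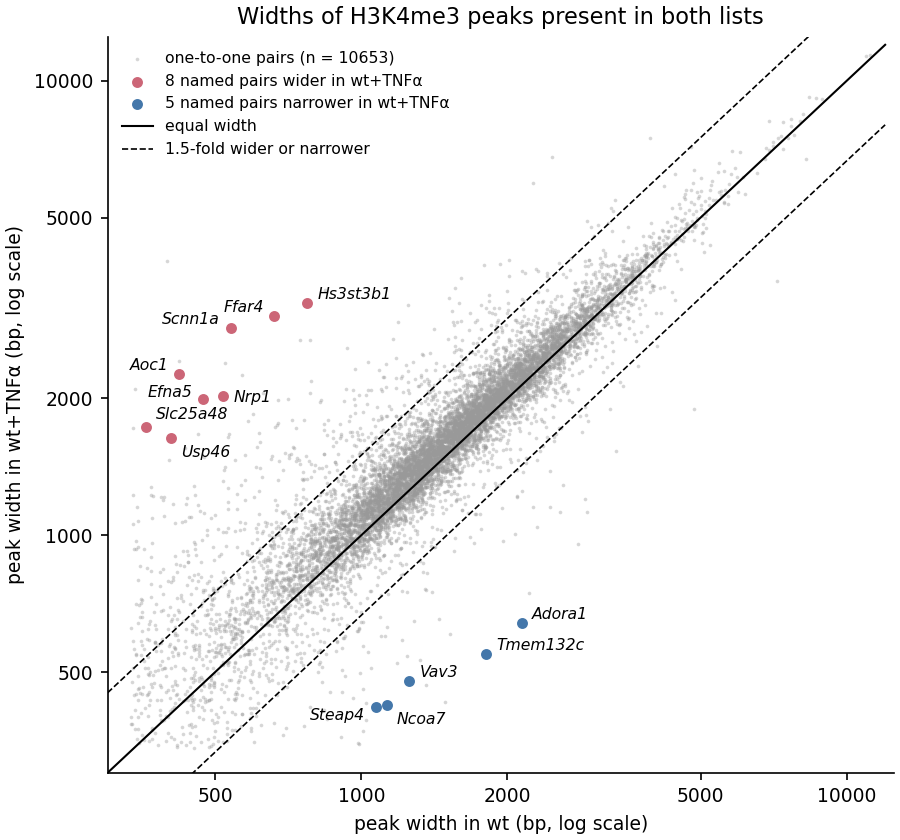
Width of each of the 10653 one-to-one H3K4me3 peaks in wt (x axis) and wt+TNFα (y axis), in bp on log scales, with the solid line at equal width and dashed lines at 1.5-fold. The cloud lies slightly above the line of equal width, and the named pairs lie far outside the dashed lines.

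The 8 pairs with the largest ratio among those with at least 1000 bp in the wider peak at a protein-coding promoter were narrow in wt. Aoc1, diamine oxidase, which degrades histamine, had 422 bp in wt and 2264 bp in wt+TNFα, a ratio of 5.36 (chr6:48895077-48897340 in wt+TNFα). Scnn1a, the α subunit of the epithelial sodium channel, had 538 and 2855 bp (5.31, chr6:125321017-125323871). Ffar4, a receptor of long-chain fatty acids, had 662 and 3038 bp (4.59, chr19:38096899-38099936), under H3K27me3 in wt alone. Their fold enrichments were 6.56 in wt and 10.4 in wt+TNFα at Aoc1, 5.17 and 9.99 at Scnn1a, and 9.82 and 28.3 at Ffar4. The others were Slc25a48, a mitochondrial carrier (360 and 1730 bp), Efna5, an ephrin (472 and 1994 bp), Hs3st3b1, a heparan sulfate sulfotransferase (772 and 3243 bp), Usp46, a deubiquitinase (405 and 1636 bp), and Nrp1, a semaphorin and VEGF co-receptor (519 and 2028 bp).

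Among the 6 pairs with the smallest ratio were Adora1, an adenosine receptor (2140 bp in wt and 641 bp in wt+TNFα, ratio 0.300, chr1:134233137-134235276 in wt), Tmem132c (1803 and 548 bp), Ncoa7, an oxidation resistance protein (1127 and 423 bp), Vav3, a guanine nucleotide exchange factor (1255 and 478 bp), and Steap4, a metalloreductase (1070 and 418 bp). At Adora1 and Tmem132c an H3K27me3 peak of both conditions lay over the pair. Steap4 had a fold enrichment of 8.88 in wt and 6.18 in wt+TNFα.

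The difference in width varied with H3K27me3. Where an H3K27me3 peak lay over the pair in wt alone (147 pairs), 134 (91.2%) were wider in wt+TNFα, with a median ratio of 1.300, and 54 were at least 1.5-fold wider against 0 narrower. Where it lay in wt+TNFα alone (161 pairs), 96 were narrower and 65 wider, with a median ratio of 0.965, and 20 were at least 1.5-fold narrower against 1 wider. With H3K27me3 in both (582 pairs) the median ratio was 1.039, and in neither (9763 pairs) 1.067, as over all pairs. The parts of depth and of the difference on the sex chromosomes in this result were not tested.

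**Figure D4:**
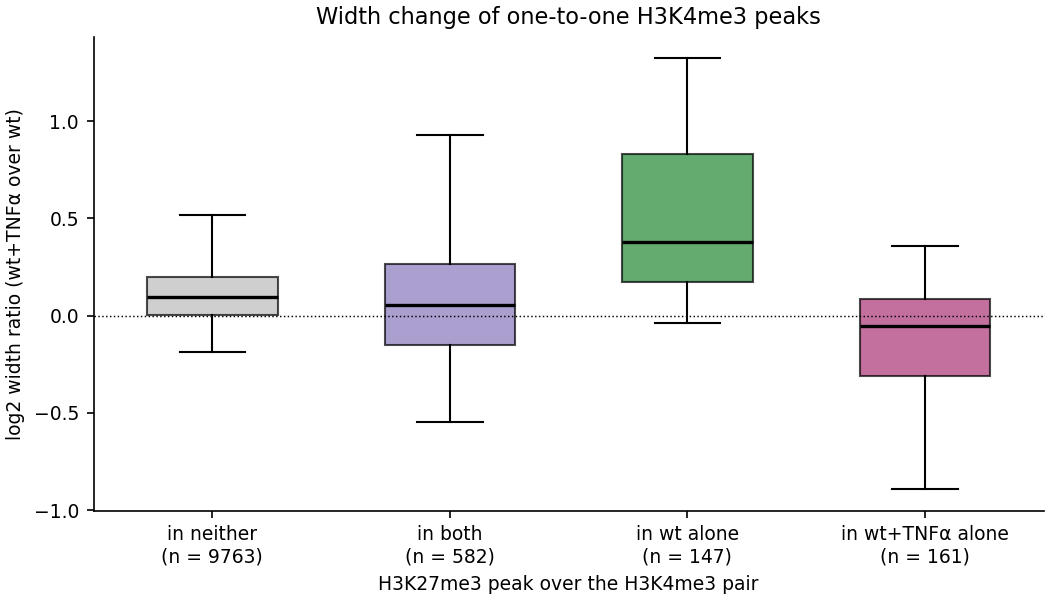
log2 ratio of H3K4me3 width (wt+TNFα over wt) of one-to-one peaks by the condition in which an H3K27me3 peak lay over the pair. Boxes give quartiles with the median as a line, whiskers the 5th and 95th percentiles across pairs, and the dotted line equal width. The box of pairs with H3K27me3 in wt alone (n = 147) lies above 0 and its median ratio is 1.300.

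At 8555 pairs at protein-coding promoters of 1 strand, the median edge lay further out in wt+TNFα, and the median shift was larger at the edge towards the gene body. The upstream edge was shifted outward by a median of 29 bp and lay further out at 65.3% of pairs, and the downstream edge by 60 bp and at 71.0%. An outward shift of at least 200 bp was found at 6.50% of upstream and 15.9% of downstream edges, and an inward shift of that size at 1.37% and 4.40%.

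The 88 joined regions had a median width of 3812 bp in wt+TNFα and a median wt gap of 446 bp, and 74 of them lay at a protein-coding promoter. Tnfaip3, which encodes A20, the ubiquitin-editing inhibitor of NF-κB, had the largest gap. Its wt peaks of 1744 and 2366 bp, 4880 bp apart, were a single wt+TNFα peak of 9484 bp (chr10:19006589-19016072). The other 5 widest at a protein-coding promoter were at Klf5, a crypt transcription factor (7228 and 650 bp in wt, 10122 bp in wt+TNFα), Adcy6, an adenylyl cyclase (3 wt peaks of 2202, 621 and 4478 bp, 9080 bp), Setd1b, a writer of H3K4 methylation (7852 and 526 bp, 8735 bp), Hes1, the Notch target (5079 and 2101 bp, 7732 bp), and the region of Eno3 and Pfn1 (5026 and 1255 bp, 7639 bp).

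Of the 27 wt peaks split in wt+TNFα, 21 lay at a protein-coding promoter, and the median gap was 433 bp. At Hoxa5, a patterning factor, the wt peak of 5254 bp was set against wt+TNFα peaks of 627 and 1301 bp with a gap of 2488 bp (chr6:52199630-52204883), the largest gap of the split peaks. B3galt5, a galactosyltransferase, had 5283 bp in wt and 1687 and 1668 bp in wt+TNFα (chr16:96280726-96286008). Zfp608 (7902 bp, then 3400 and 3665 bp), Zfp36l1, an mRNA decay factor (7592 bp, then 3499 and 3768 bp), and Lmo7 (5271 bp, then 997 and 3952 bp) were also among the 6 widest.

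Genes of TNF receptor and NF-κB signalling were already marked in wt. Of 37 members, 31 had a promoter peak in wt and 33 in wt+TNFα, 0 held a wt-only peak and 2, or 6.06% of the 33 with a peak, a wt+TNFα-only peak (Tnip1 and Icam1), beside 3.53% of all genes. The summed promoter width was at least 1.5-fold larger in wt+TNFα at 4 of 31 genes with peaks in both and smaller at 0, against 4.12% and 0.905% of all 10606 such genes. These were Tnf itself (1247 and 3217 bp, in the order wt and wt+TNFα), Nfkbie, an inhibitor of NF-κB (825 and 1981 bp), Tnfaip3 (4110 and 9484 bp) and Tnip1 (2138 and 4252 bp). The subunits Rela (1662 and 1699 bp), Relb (1953 and 2118 bp) and Nfkb1 (2149 and 2634 bp), and the receptor Tnfrsf1a (1797 and 1748 bp), had ratios between 0.973 and 1.23. The median log2 ratio of the list was 0.20, against 0.090 over all genes.

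The inflammatory groups are small, and their counts stand beside 3.53% (wt+TNFα only) and 1.72% (wt only) of all genes with a peak, and 4.12% (at least 1.5-fold wider) and 0.905% (narrower) of those with peaks in both lists. Of 41 autosomal cytokines, chemokines and receptors, 21 had a peak in either list, with 2 wt+TNFα-only peaks (9.52%) at Ccl20 (1579 bp) and Cxcl2 (1069 bp) and 0 wt-only peaks. Wider by at least 1.5-fold were Lif (1930 and 3950 bp), Cxcl16 (1007 and 1865 bp), Il6ra (460 and 792 bp) and Csf1 (904 and 1365 bp), and narrower Il18 (761 and 381 bp). Of the 18 marked members of the TNF ligand and receptor superfamily, 3 held a wt+TNFα-only peak (16.7%), namely Tnfsf15 (719 bp), Tnfrsf22 (604 bp) and Tnfrsf11b, osteoprotegerin (537 bp). Of 28 marked genes of the interferon response and antigen presentation, 4 held a wt+TNFα-only peak (14.3%), namely Psmb8 (862 bp), H2-M2 (826 bp), Nlrc5, the transactivator of MHC class I (462 bp), and Ifit2 (391 bp), and 2 a wt-only peak (7.14%), 1 of them Gbp2 (407 bp). Irf8 was narrower in wt+TNFα (4840 and 1894 bp) and Irf5 wider (549 and 1463 bp). Of 9 marked epithelial defence genes, Nos2 and Nod2 (1178 bp), a sensor of bacterial peptidoglycan, held a wt+TNFα-only peak.

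Genes of absorptive colonocytes differed in both directions. Of 17 with a peak in either list, 4 held a wt-only peak and 4 a wt+TNFα-only peak, 23.5% each, against 1.72% and 3.53% of all genes. In wt only were Slc5a8, Aqp8, Slc51b, a basolateral bile acid carrier (979 bp), and Krt20, a keratin of differentiated cells (504 and 339 bp). In wt+TNFα only were Guca2a (1559 bp) and Guca2b (1153 bp), the peptide hormones guanylin and uroguanylin, Car1, a carbonic anhydrase (1094 bp), and Ceacam20 (603 bp). Scnn1a was wider in wt+TNFα and Slc9a3, a sodium/proton exchanger, narrower (983 and 349 bp). Car2 (7674 and 8228 bp), Slc26a3 (1771 and 1785 bp) and Ceacam1 (5043 and 5031 bp) were almost equal. Apart from Slc5a8 (19.9), the highest fold enrichment of these genes' one-list-only peaks was 7.87, at Car1, within the lowest quartile of the list.

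Cytochrome P450 genes held a wt-only peak in 7 of 22 marked genes (31.8%), at Cyp1a1, Cyp2d26, Cyp2c70 (664 bp), Cyp1b1 (657 and 520 bp), Cyp4f40 (520 bp), Cyp2j9 (450 bp) and Cyp26b1 (382 bp), against 1.72% of all genes. A wt+TNFα-only peak was at 3 (13.6%, against 3.53%), Cyp4f17 (916 bp), Cyp27a1 (624 bp) and Cyp46a1 (391 bp). Solute carriers, 195 marked genes, held 9 wt-only (4.62%) and 7 wt+TNFα-only peaks (3.59%), the latter near the share of all genes.

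Further families had more wt+TNFα-only peaks than the 3.53% of all genes. Of 17 marked Hox genes 4 (23.5%) held one, Hoxb6, which held a further one of 458 bp, Hoxb7, Hoxd9 (857 bp) and Hoxd11 (740 bp), and 0 a wt-only peak. Of 23 marked Fgf, Egf-like, Wnt, Bmp and Tgfb ligands 5 (21.7%) held one, Fgf15, Bmp8b (929 bp), Wnt7b (720 bp), Tgfb2 (583 bp) and Fgf20 (500 bp). Of 14 marked genes of regenerative and fetal-like epithelium, 2 held one (14.3%), 1 of them Msln. Of the 12 with peaks in both lists, Krt7 (1516 and 3323 bp), Crip2 (457 and 905 bp) and Ccn2 (446 and 742 bp) were at least 1.5-fold wider. Over all genes with peaks in both lists that share was 4.12%.

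For housekeeping and lineage genes the shares of all genes, 3.53% (wt+TNFα only), 1.72% (wt only) and 4.12% (at least 1.5-fold wider), correspond to few genes in groups of these sizes. The shares were not matched for peak strength, and one-list-only peaks lie mostly in the lowest quartile of fold enrichment. Of 83 marked genes named Rpl or Rps and 76 mitochondrial ribosomal protein genes, 0 held a one-list-only peak, and 2 (Rps25 and the kinase gene Rps6ka2) and 1 (Mrpl45) were at least 1.5-fold wider in wt+TNFα with 0 narrower. Of 31 marked genes of cell cycle progression, 0 held a one-list-only peak and 1 was wider (E2f2). Of 15 markers of colonic epithelium, 1 held a wt+TNFα-only peak (Krt8, 1052 bp, 77 bp from the nearest wt peak), and 0 were at least 1.5-fold wider or narrower. Of the secretory lineages few genes were marked, 6 of 15 for goblet, 2 of 20 autosomal for enteroendocrine and 2 of 13 for tuft cells. Agr2, Atoh1 and Ern2 of the goblet list and Isl1 of the enteroendocrine list were wider in wt+TNFα, Creb3l1 was narrower, and Creb3l4 held a wt-only peak.

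Lists of growth control and migration are small, and most of their shares, read beside 3.53% (wt+TNFα only) and 1.72% (wt only) of all genes, rest on 1 gene. Their counts of genes at least 1.5-fold wider stand beside 4.12% of all genes with peaks in both lists. Of 17 marked genes of crypt stem cells and Wnt feedback, Hopx held a wt+TNFα-only and Nkd1 a wt-only peak (5.88% each). Of the 16 with peaks in both lists, Hopx and Cd44, which encodes a hyaluronan receptor (746 and 2693 bp), were at least 1.5-fold wider. Of 20 marked genes of senescence, p38 signalling and cell cycle arrest, Mapk12 held a wt+TNFα-only peak (5.00%). Cdkn2d and Mapk11 were wider, of 19 with peaks in both lists. Of 32 marked genes of TGF-β, activin and BMP signalling, Tgfb2, Nog (1031 bp), Tgif2 and Ltbp1 held a wt+TNFα-only peak (12.5%) and Tgfbr3 a wt-only peak (3.12%). Acvr1b, Bmp3 and Smad3 were wider, of 27 with peaks in both lists. Of 12 marked Wnt ligands and receptors, Wnt7b held a wt+TNFα-only peak (8.33%), and of 11 with peaks in both lists Fzd7 was wider. Of 14 marked genes of epithelial to mesenchymal transition, matrix and migration, Plau held a wt+TNFα-only peak (7.14%) and Itga5 and Thbs1 a wt-only peak (14.3%). Of the 11 with peaks in both lists, Mmp14 (969 and 1856 bp) and Itga3 (2510 and 4356 bp) were wider. Snai1, Twist1, Zeb1 and Vim had no peak in either list.

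In the remaining families the counts were small, and many were near the shares of all genes, 3.53% for wt+TNFα-only and 1.72% for wt-only peaks. Zinc finger proteins, the largest with 372 marked genes, held 7 in wt+TNFα only (1.88%) and 3 in wt only (0.806%). Metalloproteinases of the Adam, Adamts and Mmp families held a wt+TNFα-only peak at Adamts1, Adamts9 and Adamtsl5, 17.6% of 17 marked genes, and none in wt only. Rab GTPases held one at Rab27a, Rab38, Rab3b and Rab42 (4 of 50 marked genes), and a wt-only peak at Rab34. Homeobox genes of the Nkx, Lhx, Dlx, Irx, Pou, Pitx and related families held a wt-only peak at Msx1 and Msx3 of 14, Forkhead factors at Foxf1 and Foxl2 of 22 beside a wt+TNFα-only peak at Foxj2, and Gata and Klf factors at Gata4 of 15. Integrins, laminins and collagens (20 marked) held a wt-only peak at Itga5 and Itga7 and a wt+TNFα-only peak at Lamb2, and cadherins (14) a wt-only peak at Cdh4 and wt+TNFα-only peaks at Cdh13 and Pcdh9. Ion channels (32) had Cacna1c in wt only and Cacnb2 in wt+TNFα only, and neurotransmitter receptors (8) Gabrp and Htr1d in wt+TNFα only. Interleukins, their receptors and chemokines (31) added only a wt-only peak at Ccr9, and keratins (6) Krt20 and Krt8 as above. Kinesins, dyneins and cilia genes (54) held a wt-only peak at Kif7 and wt+TNFα-only peaks at Dnah7b and Kif12. A single one-list-only peak was found in respiratory chain subunits (Cox7a1, wt only, of 80), proteasome subunits (Psmb8, of 34), replication-dependent histones (Hist1h2be, wt+TNFα only, of 40) and olfactory, vomeronasal and taste receptors (Olfr94, wt+TNFα only, of 3), and 0 in Sox, Pax and T-box factors (8) and claudins (7).

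Genes of intestinal segments, in lists made after values were seen, were few, and their counts stand beside the 3.53%, 1.72% and 4.12% of all genes with a wt+TNFα-only peak, a wt-only peak and an at least 1.5-fold larger width. Of 16 small intestinal genes 5 were marked, Slc10a2, Fgf15 and Isx by a wt+TNFα-only peak and Gata4 by a wt-only peak (826 bp, under H3K27me3 in both conditions), while Lct, Sis, Apoa4 and Fabp6 had no peak. Of 8 colonic genes 7 were marked, Tgm3 by a wt-only peak, and Hoxd13 and Slc37a2 were at least 1.5-fold wider in wt+TNFα.

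**Figure D5:**
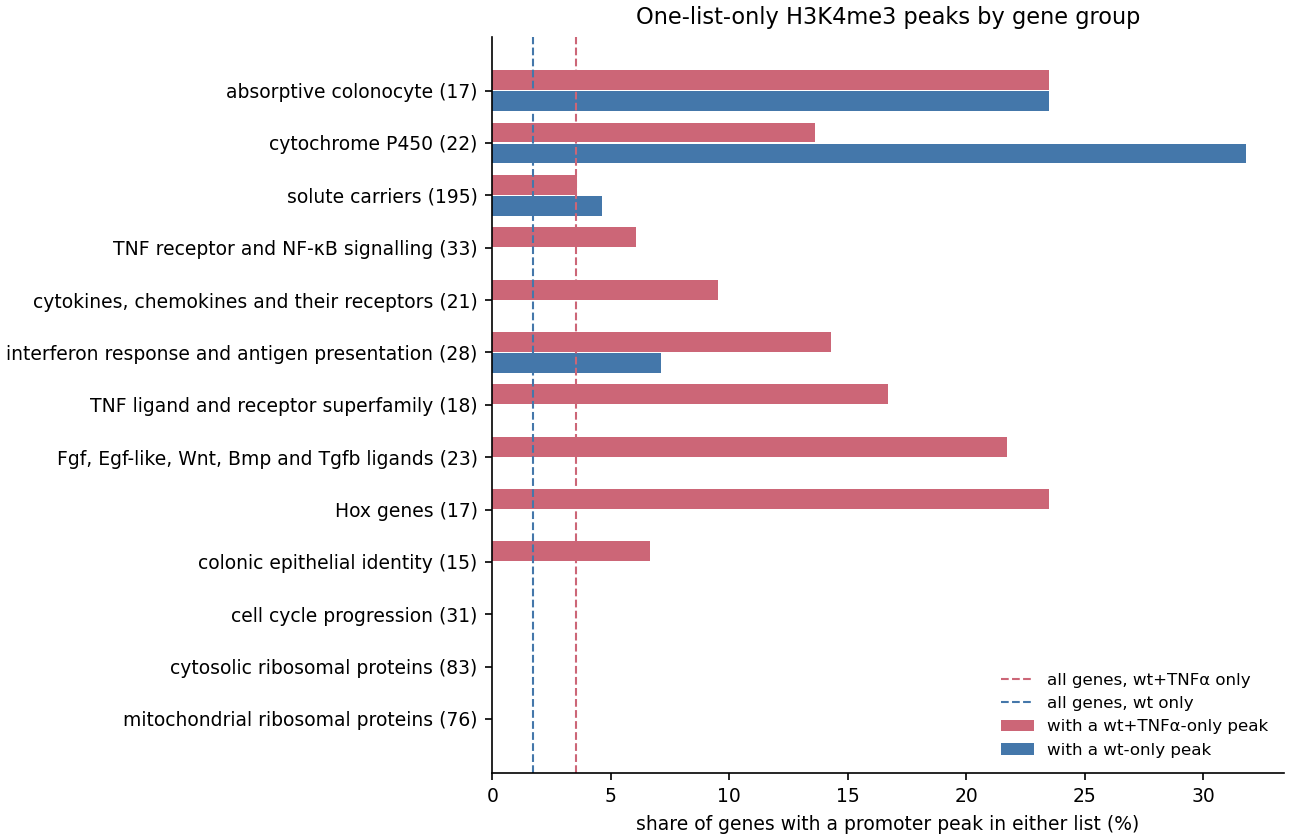
Share of the genes with a promoter peak in either list (number in parentheses) that held a wt+TNFα-only peak (red) or a wt-only peak (blue), by gene group, with dashed lines at the share over all 11071 genes (3.53% and 1.72%). Absorptive colonocyte genes exceed both lines, cytochrome P450 genes have 31.8% with a wt-only peak, and ribosomal protein genes have none of either. The shares were not matched for peak strength, and one-list-only peaks lie mostly in the lowest quartile of fold enrichment.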

How the data were processed

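Per the study's methods, the authors trimmed reads, aligned them to GRCm38 (mm10) with BWA 2.2, discarded duplicate reads (SAMtools 1.11) and reads in blacklisted regions, and ran MACS2 2.1.0 with the input as control, 1 library per condition and mark. The submitters' processing notes name these tools and versions; another MACS2 version is named in the reporting summary. The deposited lists give each peak's position, fold enrichment at the summit (a ratio to the local background) and −log10 p and q-value, as the authors' peak caller wrote them. Some list names mention a spike-in, which the sources used here do not describe.

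Autosomal peaks were compared with Python 3.11.15, pandas 2.3.3, numpy 2.4.6, scipy 1.17.1 and pysam 0.24.0. Peaks sharing at least 1 base were linked, and each linked group was classed as one to one, joined, split or in one list only. Width is the number of bases from start to end, both included. Promoters are 1000 bp on each side of GENCODE vM21 protein-coding transcript starts, over 20780 symbols, and a gene's width sums its promoter peaks. Sequence was read from GRCm38 and RefSeq GRCm38.p6. The class code recovered 1650 of 1650 simulated regions. These were planted far apart with clear overlaps and no regions with several peaks of each list. The simulation therefore does not test close or marginal peaks. Named were the 12 widest one-list-only promoter peaks and the 4 widest elsewhere in each list, the 6 widest joined and split peaks, the 8 largest and 6 smallest width ratios, and list members with such peaks. Members and lists (20 lists, 27 families, 2 added) were chosen with earlier results of these data known. No p-value was computed. Some items that met the naming rule are not reported here.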

Additional observations from a re-analysis of the deposited data

Results flagged for a closer look

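The wt H3K4me3 list held 3 peaks on chromosome Y, at Kdm5d, Eif2s3y and Uty, and the wt+TNFα list held 0. Chromosome Y was outside the comparison, and the sex of the animals behind either library is not given in the sources used here.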

How the results depend on the processing

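Of 67 alternative values for 9 results, 55 stayed near the value given in the text (within 1.5 times for counts), 12 moved and 0 reversed. Merging peaks of one list up to 500 bp apart left 11 split and 57 joined regions, and up to 1000 bp 3 and 45. Using only peaks with a −log10 q past the list median on both sides left 1 and 1, and gave 522 genes with a wt-only and 719 with a wt+TNFα-only peak. When that limit applied to the counted list alone, 1 wt-only and 2 wt+TNFα-only peaks remained. At a fold enrichment of at least 10 in the counted list, an alternative chosen after seeing the data, 38 and 113 did. At equal list length the genes numbered 247 and 303. The count for wt+TNFα was the larger in each setting. At equal list length the peak counts can differ only through joined and split regions, so that setting adds no support. The median log2 width ratio ranged from 0.086 to 0.094. No paired analysis was possible because each condition has 1 library, and for the same reason no replicate could be left out. The lists carry no read counts, so peaks near the calling threshold in one list cannot be weighed against depth, and a peak absent from a list is not shown to be absent from the chromatin.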
